A study of Mus musculus with 4 samples.

Results

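The 10 genes described here are Pnn, Srsf1, Srsf2, Srsf3, Srsf5, Srsf6, Srsf7, Srsf11, Prpf38b and Leng8, taken by symbol from the 32285 gene rows of every library. They are splicing factors and their partners, and they were selected on their counts: those of Pnn and Srsf1 had been seen to be higher in the injured libraries. The measured values of that injury contrast therefore chose the group, and they are given below as a description, with no test. The question asked of them was whether detection of the transcripts moved with the counts, in which nuclei and in which groups of neurons.

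Nuclear RNA was measured by droplet-based single-nucleus sequencing in 4 libraries of sorted cervical spinal cord nuclei from female mice of genotype Chx10Cre/+; ROSA26CAG-LSL-Sun1-sfGFP-Myc/+. In this genotype Cre made in the lineage of the excitatory V2a interneurons switches on the nuclear envelope protein Sun1-sfGFP, by which the nuclei were sorted; injured and uninjured mice carried both alleles. The 2 uninjured libraries came from segments C1-C8 and the 2 injured libraries from segments C3-C8, collected 5 days after a C2 hemisection. Segment range and injury cannot be told apart, and the labels do not say whether the libraries came from separate animals, nor give an age.

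SR proteins carry an RNA recognition motif and a domain rich in arginine and serine. They bind exons, recruit the spliceosome to neighbouring splice sites, gather in nuclear speckles, and are moved in and out of action by phosphorylation through the SRPK and CLK kinases. Most of their genes also limit their own output, by splicing in a "poison" exon or keeping an intron so that the transcript stays in the nucleus or is removed by nonsense-mediated decay. Pnn encodes pinin, an SR-related protein of nuclear speckles that joins Rnps1 and Sap18 on the exon junction complex, and Prpf38b encodes a relative of a spliceosomal pre-mRNA processing factor.

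The 3 members with the clearest rise in counts, Pnn, Srsf1 and Prpf38b, start from the stretches printed here, shown so that the sequences in front of genes that moved together can be set side by side. They come from RefSeq (GRCm38.p6), 5′ to 3′ on the gene's strand, up to 250 bases before the start and only as far as the annotated gene begins. Capitals mark every match, on either strand, to the CCAAT box with the letters CCAAT, the GC box with the letters GGGCGG, the ETS motif with the letters CCGGAAG, or the TATA box with the letters TATAAA (matches that overlap count for each motif).
Pnn, chr12:59066669-59066883, plus strand: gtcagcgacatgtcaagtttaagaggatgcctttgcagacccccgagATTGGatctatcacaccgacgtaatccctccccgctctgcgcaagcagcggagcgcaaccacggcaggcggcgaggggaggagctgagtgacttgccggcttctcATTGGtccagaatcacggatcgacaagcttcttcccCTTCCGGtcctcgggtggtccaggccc
Srsf1, chr11:88047123-88047372, plus strand: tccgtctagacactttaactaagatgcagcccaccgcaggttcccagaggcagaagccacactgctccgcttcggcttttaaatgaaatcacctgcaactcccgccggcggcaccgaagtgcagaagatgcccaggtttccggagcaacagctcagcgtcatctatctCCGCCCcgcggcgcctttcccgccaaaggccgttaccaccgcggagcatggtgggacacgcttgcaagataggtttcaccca
Prpf38b, chr3:108911730-108911979, minus strand: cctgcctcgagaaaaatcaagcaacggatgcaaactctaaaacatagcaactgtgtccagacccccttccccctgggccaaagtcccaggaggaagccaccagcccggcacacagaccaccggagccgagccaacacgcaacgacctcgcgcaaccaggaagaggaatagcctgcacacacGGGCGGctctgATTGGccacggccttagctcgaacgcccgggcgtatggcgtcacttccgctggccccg
No single motif was shared by all 3. The Pnn stretch held 2 CCAAT matches and 1 ETS match, the Srsf1 stretch 1 GC box match alone, and the Prpf38b stretch 1 CCAAT and 1 GC box match. Over the full 250 bases before the start, a GC box match was found in 8 of the 10 members, against 56.8% of the promoters of genes detected in these nuclei. A CCAAT match was found in 5 members against 34.4%, and an ETS match in 5 members against 13.1%. These are letter matches in a fixed window and say nothing about binding.

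The libraries held 7128996 and 13496025 counts (uninjured 1 and 2) and 3982267 and 2901680 counts (injured 1 and 2), from 562, 2071, 561 and 389 nuclei after filtering. The comparison rests on the glutamatergic neuron-like nuclei, 482 and 721 in the uninjured and 423 and 323 in the injured group. Uninjured 2 stood apart, with 31.7% oligodendrocyte-like nuclei and 34.8% of the glutamatergic class, which made up 75.4% to 85.8% of the others. Between 0 and 2 cell barcodes of a library recurred in another library. In the glutamatergic neuron-like nuclei the 10 oligodendrocyte markers were all at 0 counts in both uninjured libraries, and 8 of 10 were at 0 in each injured library, with a summed level of 1.36 and 2.27 CPM (counts scaled to a common total per library). The 8 astrocyte markers summed to 7.40 and 0 CPM in the uninjured and 12.8 and 12.1 CPM in the injured libraries; their part in the results below was not tested. Of the markers of the labelled cell type, Slc17a6, the vesicular glutamate transporter, was stored in 75.9% to 89.4% of nuclei but had 0 counts in injured 1.

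Each deposited matrix holds, beside its counts, many stored entries whose value is 0. A stored entry was read as a gene detected in that nucleus, and a stored 0 as a detection emptied by the subtraction of free RNA; this reading rests on the files alone. A transcript therefore has a detection, the share of nuclei with a stored entry, and a kept share, the share of those entries that still hold a count. Stored entries include free RNA: the 10 oligodendrocyte markers were stored on average in 13.9%, 18.3%, 8.79% and 15.6% of the glutamatergic neuron-like nuclei (uninjured 1 and 2, injured 1 and 2).

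In these neurons the 10 members were widely detected and mostly emptied. In uninjured 1, 4 members had any count, and in uninjured 2 only Srsf1 and Srsf11 did, while every member was stored in 45.6% or more of the nuclei of both. In injured 1, 8 members had a count, and in injured 2, 5 did. In 4 of 10 members (Pnn, Srsf1, Srsf7 and Prpf38b) both injured libraries lay above both uninjured libraries in CPM, and in 0 members below. The same order held for 14.3% of the 10476 genes stored in at least 10% of these nuclei in every library, and the reverse order for 9.79%. Since counts chose the members, nothing is read from that difference.

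Counts and detection of Pnn moved apart. It had 0 counts in both uninjured libraries, 189 in injured 1 and 63 in injured 2, that is 0, 0, 51.4 and 23.8 CPM. Over the groups the injured level was at least 197-fold higher, against a floor of 3 counts in all uninjured nuclei. The same bound was 117-fold without injured 1, 109-fold without uninjured 1, 88.0-fold without uninjured 2 and 254-fold without injured 2. Detection did not move that way. Pnn was stored in 391 of 482 (81.1%) and 581 of 721 (80.6%) uninjured nuclei and in 307 of 423 (72.6%) and 234 of 323 (72.4%) injured nuclei, so the uninjured libraries were both higher. Injured nuclei were shallower, with a median of 4353 and 4841 stored entries against 5734 and 5484. Nuclei were therefore matched on their number of stored entries, in bins of 1000 from 2000 to 7999, each with at least 10 nuclei in every library. Matched detection of Pnn was 74.2% and 76.3% in the uninjured and 79.8% and 72.7% in the injured libraries, and the groups overlapped. The difference of the group means was 1.05 percentage points, with SDs of 1.48 (uninjured) and 5.02 (injured) over n = 2 libraries each. The kept share was 0 of 391 and 0 of 581 in the uninjured libraries, which allows up to 0.767% and 0.516%. It was 108 of 307 (35.2%, 95% Clopper-Pearson interval 29.8 to 40.8) in injured 1 and 40 of 234 (17.1%, 12.5 to 22.5) in injured 2. Intervals and floors cover counting error only. In Pnn the counts were higher in both injured libraries while matched detection overlapped. With 0 uninjured counts the uninjured kept share is 0 whatever the detection, so the kept share restates the counts and is no separate result.

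**Figure D1:**
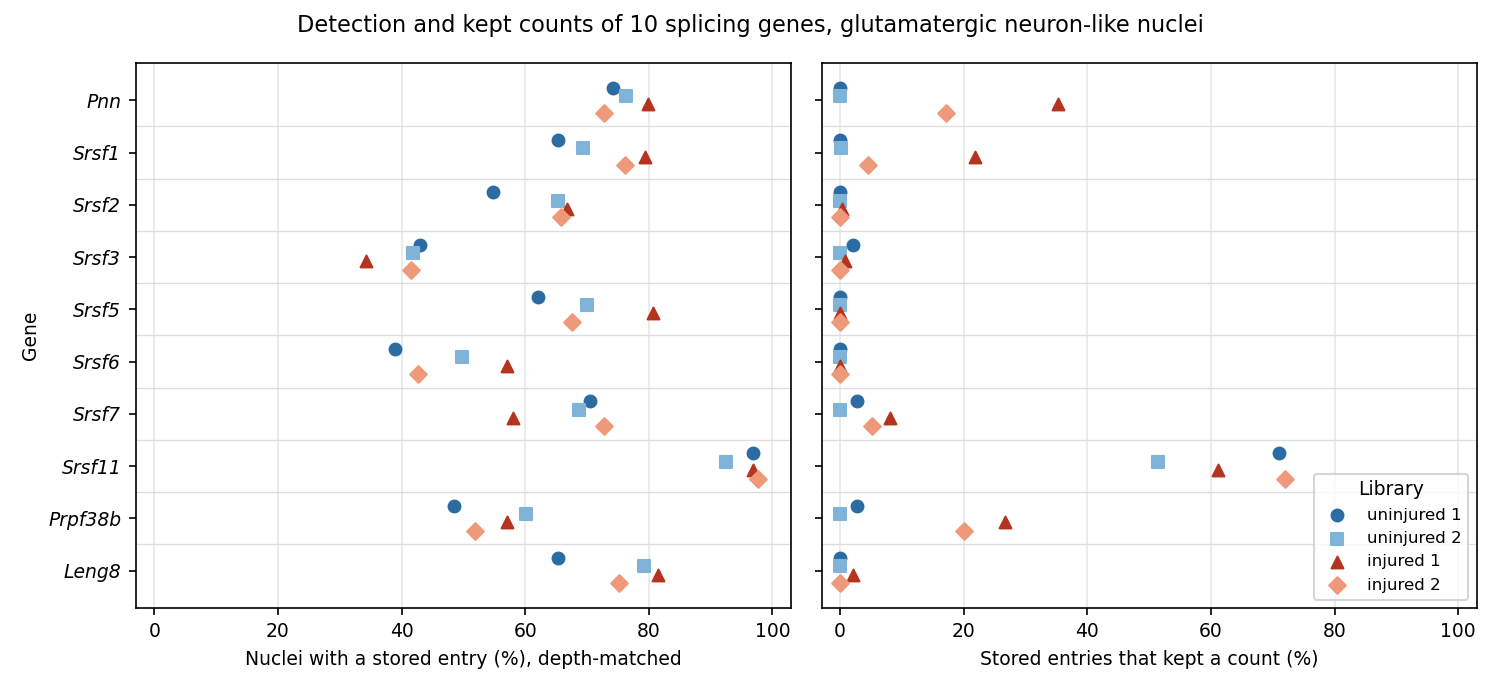
Each row is a member and each point a library (blue uninjured, red injured), with the depth-matched share of glutamatergic neuron-like nuclei with a stored entry on the left (%) and the share of stored entries that kept a count on the right (%). The points of Pnn overlap between the groups on the left and separate on the right, Srsf11 keeps between 51.4% and 72.1% of its entries, and Srsf5 and Srsf6 lie at 0 on the right in every library.

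Srsf1 encodes a founding member of the SR family that binds exonic enhancers and also acts in mRNA export and translation. It had 0 and 1 counts in the uninjured libraries and 122 and 14 in the injured libraries, or 0, 0.122, 33.2 and 5.29 CPM. The 136 injured counts stood against 1 uninjured count, a ratio of 318 per total count with a counting interval of 56.2 to 12666. It was 78.3 (11.9 to 3310) without injured 1, 491 (86.5 to 19559) without injured 2 and 176 (31.1 to 7000) without uninjured 1. Without uninjured 2, which held the 1 count, the injured level was at least 47.5-fold higher, against a floor of 3 counts over the group. Most of the rise lay in injured 1, whose CPM was the higher of the injured pair. The kept share was 0 of 359 and 1 of 544 in the uninjured libraries, 67 of 306 (21.9%) in injured 1 and 11 of 247 (4.45%) in injured 2. Unlike Pnn, Srsf1 also had a matched detection that was higher in both injured libraries, at 79.3% and 76.2% against 65.2% and 69.3%. The difference of the means was 10.5 percentage points, with SDs of 2.88 and 2.20 (n = 2 each), and it was between 9.82 and 10.8 points under the other matchings. Without matching, the groups overlapped at 74.5%, 75.5%, 72.3% and 76.5%, a difference of -0.56 points. Srsf1 was the only member in which both the counts and the matched detection were higher in every injured library. Over all genes, matched detection was higher in every injured library for 20.7% and lower for 20.8%. Of the 1503 genes with higher counts in every injured library, 33.2% also had the higher matched detection. The difference between Pnn and Srsf1 in detection was not tested.

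**Figure D2:**
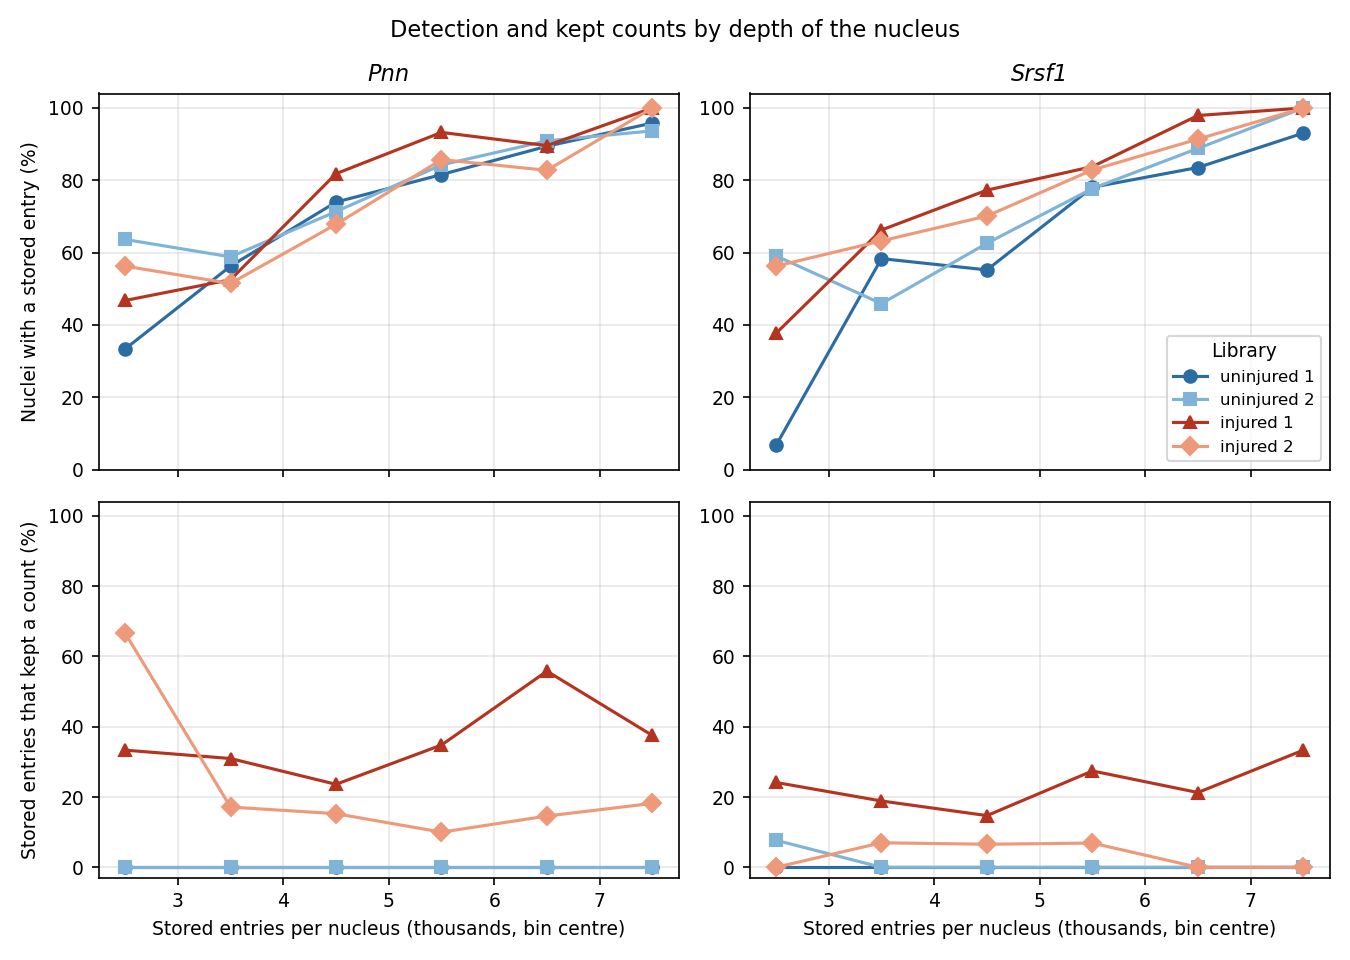
For Pnn (left) and Srsf1 (right), the upper plots give the share of nuclei with a stored entry (%) and the lower plots the share of stored entries that kept a count (%), against the number of stored entries per nucleus (bins of 1000), with 1 line per library. Detection climbs with depth in all 4 libraries, while both uninjured lines of the kept share stay at 0 for Pnn; the shallowest bin holds 15 and 16 nuclei in uninjured 1 and injured 2, and the deepest holds 11 in injured 2.

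The rise in detection with depth was steep for both genes. In nuclei with 3000 to 3999 stored entries Pnn was stored in 51.5% to 58.8%, and in those with 6000 to 6999 in 82.8% to 90.9%, over the 4 libraries. Srsf1 lay between 45.9% and 66.3% in the shallower and between 83.5% and 97.9% in the deeper of these bins. In each bin from 3000 to 6999 both injured libraries exceeded both uninjured libraries for Srsf1. In the bin of 2000 to 2999 they did not, with 6.67% of 15 nuclei in uninjured 1 and 59.1% of 22 in uninjured 2. In the bin of 7000 to 7999 Srsf1 was stored in 100% of the nuclei of uninjured 2 and of both injured libraries. The kept share of Pnn in injured 1 was 33.3%, 31.0%, 23.6%, 34.8%, 55.8% and 37.5% from the shallowest bin to the deepest.

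Prpf38b and Srsf7 were the other members with higher counts in every injured library. Prpf38b had 14, 0, 76 and 44 counts (2.11, 0, 20.7 and 16.6 CPM, in the order uninjured 1 and 2, injured 1 and 2). It kept 8 of 288 and 0 of 484 stored entries in the uninjured libraries and 57 of 214 (26.6%) and 34 of 170 (20%) in the injured libraries. Its matched detection was 48.5% and 60.2% against 57.0% and 51.9%, so the groups overlapped, with means 0.14 points apart. Srsf7, a zinc-knuckle SR protein that couples splicing to mRNA export, had 12, 0, 23 and 17 counts (1.81, 0, 6.26 and 6.42 CPM). Its matched detection was 70.5% and 68.7% in the uninjured and 58.0% and 72.8% in the injured libraries, again overlapping. Its count order was lost when nuclei were thinned to 3900 counts each: 1.10%, 0%, 1.90% and 1.05% of the nuclei then held a count, from 5, 0, 6 and 3 nuclei. Before thinning, the same nuclei gave 1.10%, 0%, 1.90% and 1.40%. In the thinned nuclei Pnn was found in 0%, 0%, 15.5% and 8.39%, Srsf1 in 0%, 0%, 10.8% and 2.80%, and Prpf38b in 0.219%, 0%, 6.96% and 5.24%, and for these 3 the injured libraries stayed above. Unthinned, those nuclei held Pnn counts in 0%, 0%, 29.4% and 11.5%, Srsf1 counts in 0%, 0%, 19.3% and 3.50%, and Prpf38b counts in 1.75%, 0%, 17.1% and 10.8%. Thinning left out 26, 24, 107 and 37 shallower nuclei.

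Srsf11 was the one member that kept counts in every library. Its product, an SR-related protein, is known to help include the very short exons of neurons. It had 1286 and 1078 counts in the uninjured and 678 and 737 in the injured libraries, or 194 and 132 against 184 and 278 CPM, so the groups overlapped. It was stored in 98.1%, 94.5%, 93.1% and 97.5% of nuclei and kept 71.0%, 51.4%, 61.2% and 72.1% of those entries. A nucleus with a kept entry held 2.81 to 3.83 counts on average and at most 18. Scaled by the TMM method, Srsf11 too was higher in both injured libraries. Uninjured 2 was lowest both in its kept share and in its CPM.

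The remaining 5 members were detected but nearly without counts. Srsf5 and Srsf6, which bind exonic enhancers, had 0 counts in all 4 libraries. Srsf5 was nevertheless stored in 70.7%, 75%, 74.5% and 67.8% of nuclei, and Srsf6 in 50%, 56.6%, 52.7% and 43.0%. Among the 10476 genes, 9.95% had 0 counts in all 4 libraries. Srsf2, the speckle protein also called SC35, had 0, 0, 1 and 0 counts, and Srsf3, which takes part in mRNA export with Srsf7, had 5, 0, 1 and 0. Leng8 had counts only in injured 1, where 7 of 323 stored entries kept 9 counts. The detection of these genes went different ways. Matched detection of Srsf2 was 54.8% and 65.3% in the uninjured and 66.8% and 65.9% in the injured libraries, higher in both but by less than 1 point over uninjured 2. Srsf3 was lower in both injured libraries, at 34.3% and 41.6% against 43.0% and 41.8%, with injured 2 within 1 point of uninjured 2. Srsf5 (62.0% and 70.1% against 80.6% and 67.6%), Srsf6 (39.0% and 49.8% against 57.1% and 42.7%) and Leng8 (65.4% and 79.2% against 81.4% and 75.2%) overlapped.

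Counting the members, matched detection was higher in every injured library in 2 of 10 (Srsf1 and Srsf2) and lower in 1 (Srsf3), against 20.7% and 20.8% of all genes. Without matching, 0 members were higher and 4 were lower (Pnn, Srsf3, Srsf7 and Prpf38b). Unmatched detection was lower in the injured libraries over all genes too. Its median over the 10476 genes was 46.7% and 43.5% in the uninjured and 35.0% and 38.7% in the injured libraries. The share of genes in each order was not counted without matching, so nothing is read from the 4 members. With the bins weighted equally, the 2 higher members were Srsf1 and Srsf11, and over all nuclei of the libraries only Srsf1 remained. The number of higher members was 3 without uninjured 1, 6 without uninjured 2, 4 without injured 1 and 6 without injured 2. A group of 1 library makes the order easier to meet for any gene. The share of all genes was not counted for these other settings. Of the 4 members whose counts were higher in every injured library, 1 (Srsf1) had a matched detection higher in every injured library too. The kept share was higher in both injured libraries in the same 4 members, and over all genes in 14.0%. It is made from the counts that chose the members, so nothing is read from that difference.

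What the members share beside their function is short genes. In the GENCODE M21 annotation (GRCm38) 9 of them span between 3194 bases (Srsf2) and 11139 bases (Leng8), whereas Srsf11 spans 26167; the median of genes detected in these nuclei was 33.8 kb. Pnn lies at chr12:59066884-59073998 (7115 bases, 81.0% exonic), Srsf1 at chr11:88047373-88053755 (6383 bases, 89.5% exonic) and Srsf11 at chr3:158010473-158036639 (32.3% exonic). Kept shares moved with span over the 3743 protein-coding genes stored in 40% to 80% of nuclei. The 336 genes spanning under 12 kb had a median kept share of 0%, 0%, 0.447% and 0%, and 65.2%, 63.1%, 49.4% and 55.7% of them had 0 counts. Genes of 12 to 50 kb had medians of 36.3%, 28.5%, 33.8% and 36.9%, and those over 200 kb 64.4%, 60.4%, 67.9% and 63.6%. These borders were chosen after the data were seen. A kept share at or near 0 was thus common among short genes in all 4 libraries, and the members' low counts stand against that. The part of gene length in the members' injury values was not tested.

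**Figure D3:**
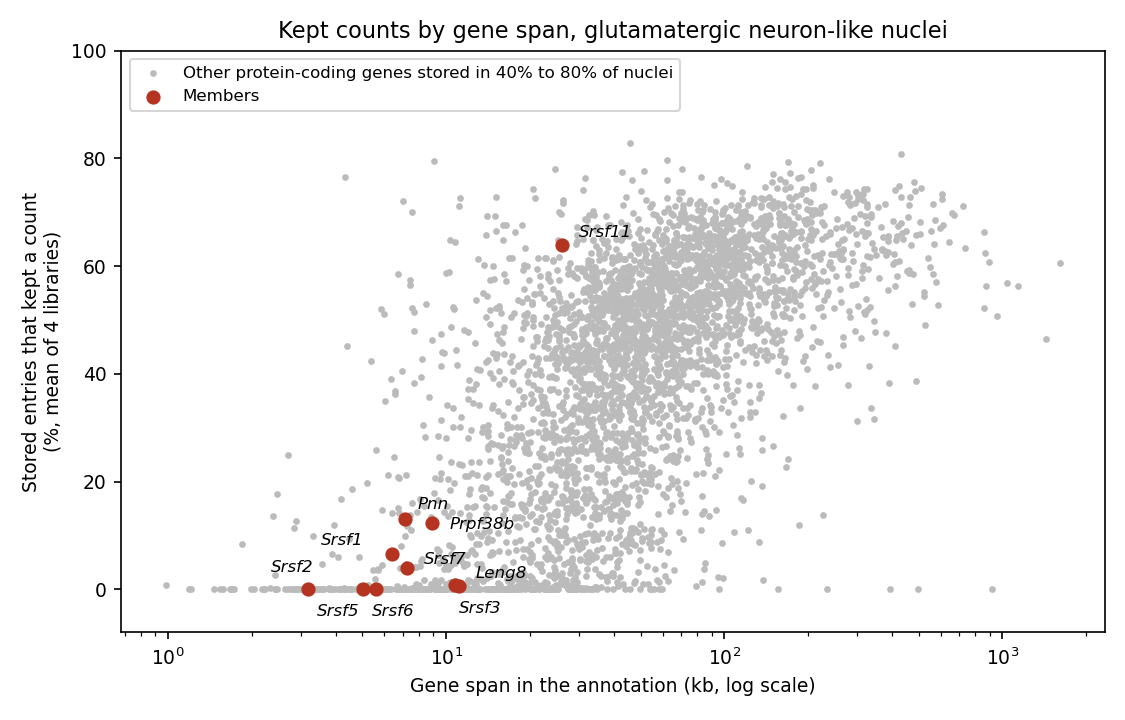
Each grey point is a protein-coding gene with a stored entry in 40% to 80% of the neuron nuclei compared and each red point a member, with the gene span on a log axis (kb) and the share of stored entries that kept a count (%, mean of the 4 libraries). The 9 members under 12 kb lie at or near the bottom among other short genes, and Srsf11 at 26.2 kb lies among the genes that kept most of their entries. Srsf11 was stored in 95.8% of nuclei (mean of the 4 libraries), above the range of the grey points.

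Having 0 counts in both uninjured libraries and counts in both injured libraries, as Pnn did, was seen in 121 of the 10476 genes (1.16%), and the reverse in 7 (0.0668%). Among the protein-coding genes under 12 kb it was seen in 10 of 336 (2.98%). The annotation also gives 9 of the 10 members a transcript marked for nonsense-mediated decay, all but Leng8, against 32.1% of 9495 protein-coding genes detected here. All 10 have a transcript with a retained intron, against 63.9%. The deposited counts do not separate transcripts, so none of these forms was measured.

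Overlapping genes limit 4 members, since the sources used here do not give the use of strand in counting. The whole 3194 bases of Srsf2 lie within Mettl23 on the opposite strand, and 655 of them overlap Mfsd11. Srsf1 shares 634 bases with the antisense gene Gm11508, which had 59.0, 44.7, 49.0 and 58.6 CPM, with overlapping groups, unlike Srsf1. Srsf11 shares 2470 bases with Gm43362 on its own strand. Leng8 shares 263 bases with Leng9 on the opposite strand. Leng9 had 0, 0, 59.0 and 13.2 CPM, and whether reads of Leng8 and Leng9 were told apart was not tested.

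Within the neurons the Pnn rise was not limited to 1 group. The glutamatergic neuron-like nuclei fell into 8 clusters, numbered 0, 1, 4, 6, 9, 10, 11 and 14, with at least 18 nuclei of each library. Pnn kept counts in 8 of 8 clusters in injured 1 and in 8 of 8 in injured 2, and in 0 of 8 in both uninjured libraries. In injured 1 its kept share ran from 3 of 17 entries (17.6%, cluster 9) to 17 of 34 (50%, cluster 10), and in injured 2 from 1 of 23 (4.35%, cluster 6) to 5 of 15 (33.3%, cluster 9). In cluster 9 the intervals of the injured libraries overlapped, at 3.80 to 43.4% and 11.8 to 61.6%. Cluster 0 showed the gap as well, with 31 of 79 entries kept in injured 1 but 4 of 57 in injured 2. Detection of Pnn was highest in cluster 1 in both uninjured libraries (90.9% and 91.6%), the cluster whose nuclei were deepest, with a median of 5942 to 7375 stored entries.

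Srsf1 counts were found in fewer clusters. It kept counts in 7 of 8 clusters in injured 1 and in 5 of 8 in injured 2. In injured 1, cluster 1 kept 33 of 86 stored entries (38.4%), with 68 of the library's 122 counts, whereas cluster 0 kept 8 of 77 (10.4%). In injured 2, cluster 1 kept 3 of 64 (4.69%), so the high share of cluster 1 was seen in 1 library. Unmatched detection of Srsf1 within cluster 1 was alike, at 87.0%, 88.9%, 86.0% and 83.1%. Prpf38b kept counts in 8 and 7 clusters of the injured libraries and in 4 and 0 of the uninjured, and Srsf11 in 8 of 8 in every library, with the lowest kept share in cluster 11 or cluster 9. The clusters were built from all genes of these nuclei, so the differences between them are descriptive.

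**Figure D4:**
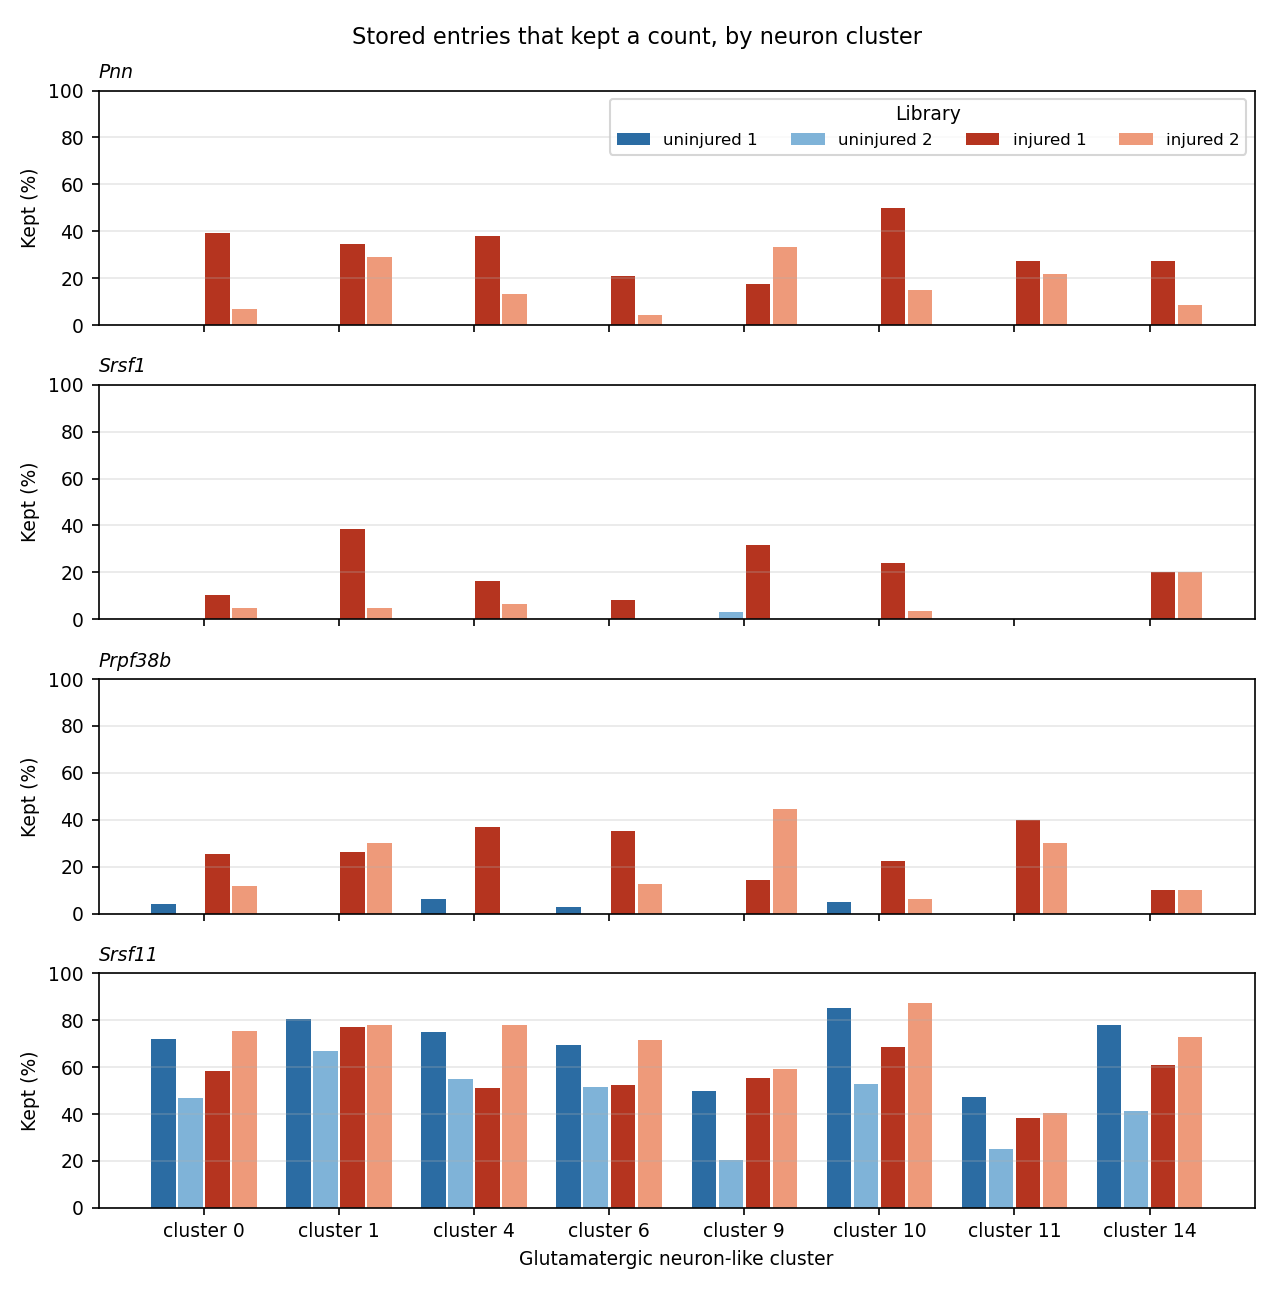
Bars give the share of stored entries that kept a count (%) in each of the 8 glutamatergic neuron-like clusters, for Pnn, Srsf1, Prpf38b and Srsf11, with 1 bar per library and no bar where the share is 0. Pnn bars appear in every cluster for both injured libraries and for neither uninjured library, and Srsf11 has bars in every cluster of all 4 libraries.

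Some nuclei kept counts of both Pnn and Srsf1. In injured 1, 21 of 423 nuclei kept both, 19.4% of the 108 with Pnn and 31.3% of the 67 with Srsf1. In injured 2, 1 of 323 nuclei kept both, of 40 with Pnn and 11 with Srsf1. Pnn and Prpf38b met in 18 nuclei of injured 1 and 6 of injured 2. Srsf1 and Srsf7 met in 0 nuclei of injured 1 (67 and 19 kept them) and 0 of injured 2 (11 and 12). The overlap that unlinked genes would give was not computed, so no link between the genes is read from these numbers. Depth of the nuclei is shared by all such pairs, and its part was not tested.

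Outside the glutamatergic neurons the kept shares were other ones. Uninjured 2 held enough other nuclei to set them side by side. Srsf1, with 1 kept entry of 544 in the glutamatergic neuron-like nuclei of that library, kept 17 of 49 (34.7%) in its astrocyte-like nuclei and 3 of 14 in its oligodendrocyte precursor-like nuclei. It kept 0 of 172 in oligodendrocyte-like and 0 of 71 in inhibitory neuron-like nuclei. Prpf38b likewise kept 0 of 484 entries in the glutamatergic neurons, but 6 of 39 in astrocyte-like and 10 of 207 in oligodendrocyte-like nuclei. In uninjured 1 the 1 astrocyte-like and 4 oligodendrocyte-like entries of Srsf1 kept no count. Pnn kept none in any named class of uninjured 2: 0 of 581 in glutamatergic, 0 of 203 in oligodendrocyte-like, 0 of 69 in inhibitory and 0 of 41 in astrocyte-like nuclei.

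Srsf11 had the opposite distribution. In uninjured 2 it kept 350 of 681 entries in glutamatergic and 41 of 102 (40.2%) in inhibitory neuron-like nuclei. It kept 2 of 51 in astrocyte-like and 0 of 337 in oligodendrocyte-like nuclei, although 51.3% of the latter held a stored entry. Median counts per nucleus in these classes were 9764, 6079, 2702 and 1782. Depth therefore differs between the classes, and its part in these shares was not tested. At 2000 to 2999 stored entries in uninjured 2, Srsf1 kept 1 of 13 entries in glutamatergic and 10 of 28 in astrocyte-like nuclei. Srsf11 kept 5 of 15 entries and 1 of 31 entries there. Among nuclei of uninjured 2 with 2000 to 2999 stored entries, Srsf6 was stored in 39.7% of 121 oligodendrocyte-like nuclei. It was stored in 4.55% of 22 glutamatergic neuron-like nuclei, that is in 1 nucleus. Srsf2 was stored in 60.3% and 50% of the same nuclei. Srsf3, Srsf7, Srsf11 and Prpf38b also had the higher share in the oligodendrocyte-like nuclei. Pnn, Srsf1, Srsf5 and Leng8 had it in the glutamatergic neuron-like nuclei. In that bin of uninjured 1, injured 1 and injured 2, the glutamatergic neuron-like nuclei stored Srsf6 in 20%, 28.6% and 18.8%.

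The neurons left without a name (58, 408, 92 and 57 nuclei) were shallower in the injured libraries, with a median of 1230.5 and 2971 counts against 5615 and 5169.5. They were a different mix of clusters in each library. The shallow cluster 7 held 30, 50, 82 and 47 of them, and clusters 5 and 8 the rest. Counts per nucleus, relative to the library median, had a median of 0.394 in cluster 7, 1.32 in cluster 5 and 0.992 in cluster 8. The values below therefore compare unlike mixes. In them Pnn kept 2 of 38 and 0 of 250 entries in the uninjured and 17 of 37 (45.9%) and 1 of 20 in the injured libraries. Srsf1 kept 0 of 28 and 0 of 235 against 6 of 31 and 2 of 35. All 10 members had counts in these neurons of injured 1, Srsf5 (4 counts) and Srsf6 (2 counts) included. In injured 2, 4 members besides Srsf11 had any (Pnn, Srsf1, Srsf7 and Prpf38b). The 17 Pnn nuclei of injured 1 all lay in cluster 7, led by genes such as Snhg20, Kifc2 and Nefl. This cluster held 82 nuclei of injured 1 and 47 of injured 2, which kept 0 of 14 Pnn entries.

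By CPM over the 4 libraries, the 5 genes nearest to Pnn (Euclidean distance of log2(CPM + 1), among 3264 genes stored in at least 50% of nuclei) were Sbf1, Leng9, Srsf1, Prpf38b and Atp9a. Sbf1 had 0, 0, 54.9 and 29.5 CPM at a distance of 0.31. The 5 nearest to Srsf1 were Leng9, Aatk, Pnn, Prpf38b and Cltb, with Leng9 at a distance of 1.44. Matched detection of these neighbours did not follow 1 pattern. Sbf1 was higher in both injured libraries (55.3% and 58.2% against 38.0% and 49.3%), whereas Leng9 overlapped (64.1% and 49.9% against 61.7% and 72.3%). Likeness over 4 libraries of 2 conditions is a description.

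The other genes of the splicing pathway were taken from 7 lists. None of their genes passed the threshold in the edgeR quasi-likelihood test over all 11010 genes tested (0 called, 0.0%; 219 at an unadjusted p under 0.05). DESeq2 called 9 genes (0.0817%), none of them in the lists. Whether a member was called is given for neither fit, because the members were chosen on these counts. Without uninjured 1, uninjured 2 stood alone in its group, so the calls of that fit are not set against the lists. The other SR proteins, which share the domains of the Srsf members, were 4 genes. Of these, 2 were higher in CPM in every injured library and 0 lower, beside 14.3% and 9.79% of all genes. Srsf9 had 0 and 0 CPM in the uninjured and 5.44 and 5.67 in the injured libraries, with matched detection of 27.1% and 31.2% against 34.6% and 31.5%. Srsf4 had 35.0 and 16.1 against 54.1 and 44.9 CPM, with overlapping detection. Srsf10 (30.5 and 1.22 against 27.5 and 49.1 CPM) and Srsf12 (15.7 and 17.2 against 9.52 and 19.3 CPM) overlapped in counts.

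Of 33 SR-related proteins and partners, 10 were higher in CPM in every injured library and 1 was lower, beside 14.3% and 9.79% of all genes. In matched detection 2 were higher and 10 lower, beside 20.7% and 20.8% of all genes. Scaf1, which binds RNA polymerase II, had 0.906 and 0 against 7.34 and 46.8 CPM, and Luc7l, a relative of a U1 snRNP protein, 21.7 and 0.856 against 23.9 and 56.7 CPM. Snrnp70, a core U1 protein, had 16.9 and 82.7 against 83.2 and 0 CPM although stored, after matching, in 96.9% or more of the nuclei of every library. Rsrp1 had 0 and 93.7 against 35.9 and 0 CPM. In these genes the count was at 0 in 1 library of a group while detection stayed above 90%.

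The kinases and importers of SR proteins were 9 genes, 8 of them detected widely enough: 4 were higher in CPM in every injured library and 1 lower, beside 14.3% and 9.79% of all genes. Clk1, which phosphorylates SR proteins in the nucleus, was lower in counts (21.3 and 48.5 against 2.99 and 17.4 CPM) and in matched detection (93.9% and 85.7% against 83.5% and 75.6%). Clk2 was higher in both, at 19.5 and 19.9 against 33.7 and 37.0 CPM and 46.3% and 41.7% against 46.5% and 50.8%. Srpk1, the cytoplasmic kinase, had 19.9 and 0 against 50.04 and 28.7 CPM. Srpk2 had 418 and 363 against 331 and 403 CPM.

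Of the 12 detected genes of the exon junction complex and nonsense-mediated decay, which read where exons were joined and remove transcripts with early stop codons, 3 were higher in CPM and 0 lower, beside 14.3% and 9.79% of all genes. Smg5 had 9.51 and 17.2 against 27.7 and 17.8 CPM, and Upf3b 20.7 and 0 against 23.4 and 34.8 CPM. Upf2 (101 and 60.0 against 78.6 and 71.4 CPM) overlapped.

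Among 24 hnRNP and PTB proteins, which often act against SR proteins, 2 were higher and 1 was lower in CPM, beside 14.3% and 9.79% of all genes. Hnrnpu had 42.9 and 0 against 119 and 74.8 CPM, and Ptbp2, the neuronal PTB protein, was lower at 72.1 and 68.4 against 120 and 79.1 CPM. Hnrnpa3 (4.23 and 0 against 13.3 and 1.13 CPM) and Hnrnpf (22.3 and 0 against 3.26 and 0 CPM) overlapped. Of 26 core spliceosome genes, 2 were higher and 0 lower in CPM against the same shares, and 8 had 0 counts in all 4 libraries, beside 9.95% of all genes. Snrnp200, the helicase that unwinds the U4 and U6 snRNAs, had 0.906 and 0 against 3.54 and 2.27 CPM. Cdc5l (9.36 and 0 against 5.71 and 20.8 CPM), Sf3a1 (14.3 and 0 against 3.81 and 9.07 CPM) and Prpf6 (65.4 and 54.9 against 48.1 and 76.3 CPM) overlapped.

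The 18 neuronal splicing factors had a median kept share of 70.5% to 73.6% in the 4 libraries, beside 0% to 5.16% for the members and 31.0% to 43.8% for all 10476 genes. These sets were not matched on gene span or detection, and the kept share moved with span, so the gap is not read as one between kinds of splicing factor. In this list 2 genes were higher and 4 lower in CPM, beside 14.3% and 9.79% of all genes. In matched detection 0 were higher and 7 lower, beside 20.7% and 20.8% of all genes. Elavl2, a neuronal RNA-binding protein, had 554 and 581 against 395 and 445 CPM. Celf5 had 2.42 and 10.5 against 6.80 and 16.2 CPM. Mbnl1 had 195 CPM in uninjured 1 and 0 in uninjured 2, where 80.4% of matched nuclei stored it, against 132 and 139 CPM in the injured libraries. Qk, with 84.4 and 0 against 19.0 and 20.02 CPM, was likewise at 0 in uninjured 2 alone. Counts at 0 beside wide detection thus also separated the 2 uninjured libraries from each other. The part of the subtraction in any of these values was not tested.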

How the data were processed

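Nuclear RNA was counted in 4 libraries of sorted nuclei. The deposited matrices hold whole-number UMI counts per gene and nucleus; the genome build was mm10 and the tools Seurat 5.0.0 and Cell Ranger, per the submitters' processing notes. The deposited file names mention SoupX, which subtracts free RNA; its settings, as well as strand use and the version of Cell Ranger, are not given in the sources.

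Between 53.0% and 60.1% of stored entries were 0. Nuclei with under 500 genes with a count, or 5% or more mitochondrial counts, were left out, as were 11 Scrublet doublets (scanpy 1.11.5). Seurat 5.3.0 integrated the libraries (canonical correlation, 2000 genes, 30 dimensions, resolution 0.5) into 18 clusters, named from markers. A name needed 3 markers at 4 times the level of other nuclei. Neurons were called glutamatergic neuron-like where at least 50% stored Slc17a6, V2a genes were stored and no other class fitted better.

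Counts were summed per library and tested with edgeR 4.0.16 in R 4.3.3 (quasi-likelihood, TMM, Benjamini-Hochberg, threshold 0.05). The fit was run beforehand on simulated data with the same dispersion for every gene, which does not give its power on these libraries. DESeq2 1.42.0 was an alternative. So were other scalings, no filter on low counts, a replicate block, all nuclei, other matchings and leaving out each library. Nothing says that libraries are separate animals, so a p-value reflects only library-to-library spread, possibly technical. CPM is a library's summed count of a gene scaled to a common total.

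The members and lists were chosen with earlier results of these data known. Named genes are the members, the 2 highest and 2 lowest fold changes of each list, the 5 genes nearest to Pnn and Srsf1, and genes overlapping a member; some of these are not reported here. Promoter letters come from RefSeq (GRCm38.p6).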

Additional observations from a re-analysis of the deposited data

How the results depend on the processing

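The count of genes called by edgeR (0) stayed at 0 with RLE scaling, over all nuclei and without uninjured 2, injured 1 or injured 2, became 9 with DESeq2 and 3 without a filter on low counts (Leng9, Sbf1 and 1 member, whose call is no test since counts chose it), and ranged from 0 to 227 over the fits that left out 1 library, the 227 coming without uninjured 1. Replicate numbers were shared by the labels only: the difference between replicates 1 and 2 in the uninjured libraries correlated at -0.059 over genes with that in the injured libraries, and the fit with the replicate number as a block called 0 genes. The 4 members with higher counts in every injured library were 5 with TMM scaling, 4 per stored entry, 4 over all nuclei, 3 in thinned nuclei and 4 to 6 with 1 library left out. The 2 members with higher matched detection were 0 without matching, 1 over all nuclei, 2 with bins of 500, with equal weights and with bins of at least 20 nuclei (added after the data were seen), and 3 to 6 with 1 library left out; the cause of these moves was not tested, beyond that leaving a library out makes a group of 1. The leave-one-out ratios of Pnn and Srsf1, added after the data were seen, stand beside their main values. The log2 fold change of the 5 members tested kept its sign in every fit. Nothing is read from that, since counts chose the members and the fits share their libraries. The fitted size for Pnn, at 0 in both uninjured libraries, depends on the prior count and is not given. Srsf2, Srsf3 and Leng8 had 9 counts or fewer in the glutamatergic neuron-like nuclei of every library, although widely stored, which limits what their counts can show.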
